A study of Mus musculus with 7 samples.

Results

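Transcripts of 10 mouse tetraspanin genes (Cd9, Cd63, Cd81, Cd82, Cd37, Tspan2, Tspan3, Tspan13, Tspan17 and Tspan32) were measured in alveolar macrophages with and without Suz12, which encodes a component that the polycomb complex PRC2 needs to place its repressive histone mark. They are 10 of the 31 tetraspanin genes looked up by symbol among the 27179 genes counted. The 10 were chosen by their levels and fold changes in this same comparison of genotypes. Their differences between genotypes are therefore given as a description, without p-values, and support nothing further.

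Alveolar macrophages, the resident phagocytes of the airspaces, were isolated by flow cytometry after lethally irradiated C57BL/6 recipients, carrying the Ly5.1 allele of CD45, had received mixed marrow. In the wild type group (4 libraries) the grafted marrow was 90% wild type Ly5.2, and in the Suz12 cKO group (3 libraries) it was 90% Suz12 conditional knockout Ly5.2. The other 10% was wild type Ly5.1 marrow in both groups, so all the mice carried some cells with intact Suz12. The sources used here do not give the Cre driver, the deleted exons, the age of the mice or whether the sort excluded Ly5.1 cells of the competitor or the host. The design text calls the libraries biological replicates.

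Tetraspanins are small proteins that pass through the membrane several times and gather integrins, proteases and immune receptors into membrane microdomains. CD9 and CD81 are close relatives that restrain the fusion of macrophages, and mice lacking both develop emphysema-like lungs with altered macrophages. CD63 marks late endosomes, lysosomes and exosomes, CD37 and TSPAN32 are found mainly on blood cells, and TSPAN17 belongs to the group of tetraspanins that escorts the protease ADAM10 to the cell surface.

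The libraries held between 48104653 and 79281431 counts, above the number of reads per sample that the design text states; the reason was not tested, so counting error is not derived from them. Suz12 measured 22.1, 23.6 and 15.1 CPM (counts scaled to library size by the TMM method) in Suz12 cKO replicates 1 to 3, against 56.5, 56.3, 73.9 and 68.9 CPM in wild type replicates 1 to 4 (edgeR log2 fold change -1.65, SE 0.18, adjusted p = 0.00134). The alveolar macrophage markers Siglecf, Itgax, Pparg and Chil3 were present in each library, at 198 CPM or more for Siglecf and 2045 CPM or more for Itgax. Suz12 cKO replicates 1 and 2 and wild type replicate 2 stood apart: haemoglobin transcripts summed to 192, 155 and 56.6 CPM in them and to 2.29 to 5.17 CPM in the other 4 libraries. The tetraspanin results are given with all libraries and, where the call or the value changes, also within these 2 sets.

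Cd9 was the most abundant tetraspanin by far, and all 3 of its Suz12 cKO values lay below all 4 wild type values. In sorted bulk RNA, a different number of cells of a type and a different amount of RNA per cell cannot be told apart. Of the 10 genes, 6 were called higher in Suz12 cKO (Cd81, Cd37, Tspan3, Tspan13, Tspan2 and Tspan17), 2 were called lower (Cd9 and Tspan32), and Cd63 and Cd82 were not called. A gene was called at an edgeR adjusted p under 0.05, with adjustment over all 14436 genes tested. Of those genes 10.3% were called, 6.28% higher and 4.02% lower. Since the genes were listed with these calls in view, nothing is read from this contrast. The ranges of the genotypes did not overlap for 9 of the 10 genes (all but Cd63), against 25.5% of all genes tested. The median log2 fold change was 0.77 over the 10 genes and 0.00 over all genes tested.

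**Figure D1:**
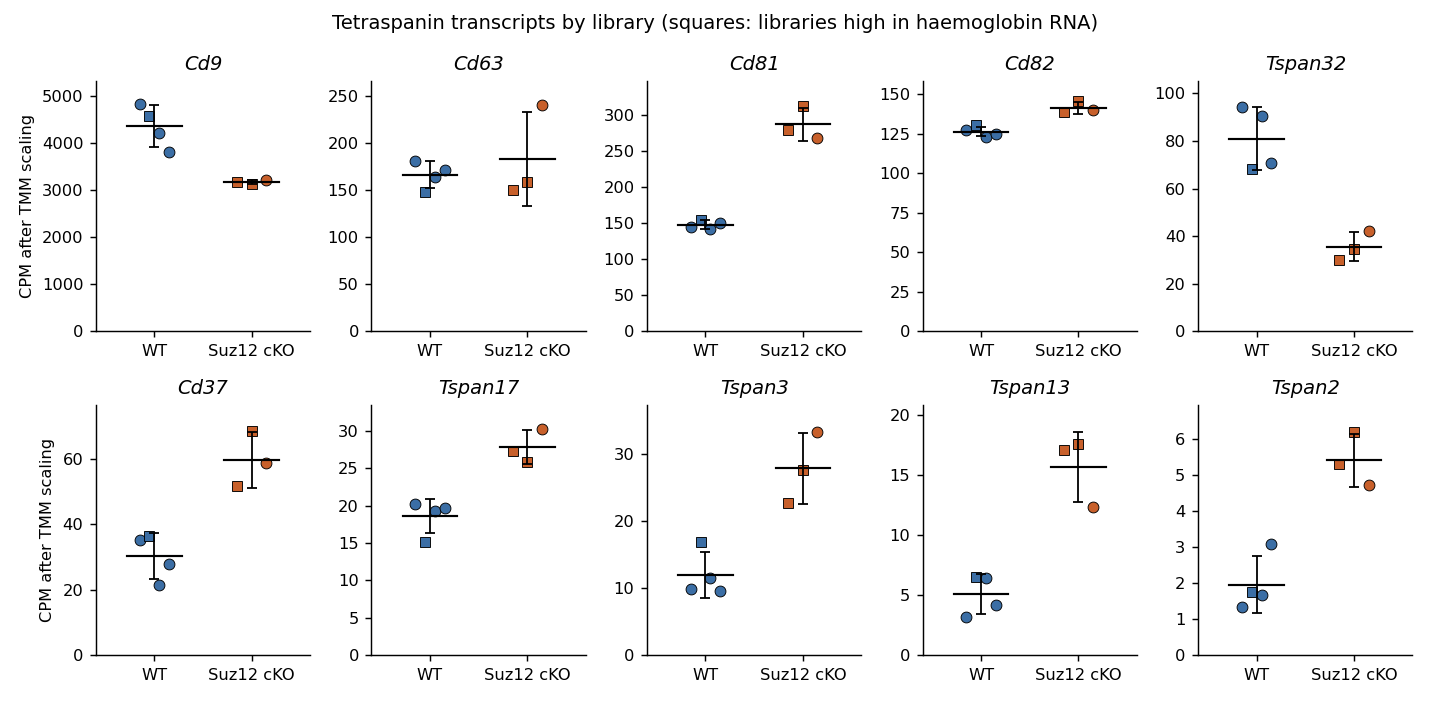
Level of each of the 10 tetraspanin transcripts in CPM (vertical axes, each starting at 0) in the 4 wild type and 3 Suz12 cKO libraries; points are libraries, horizontal lines are means, bars are SD, and squares mark the 3 libraries high in haemoglobin RNA. The genotypes overlap for Cd63 alone, and Cd81 stays between 141 and 154 CPM in wild type and between 268 and 313 CPM in Suz12 cKO.

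Scaled to exon length, Cd9 averaged 3662 ± 375 CPM per kb in wild type (SD, n = 4), which placed it at rank 9 of the 14436 tested genes. Cd63 followed at 160 ± 13.7, Cd81 at 97.3 ± 3.89, Cd82 at 68.1 ± 1.70, Tspan32 at 44.3 ± 7.26 and Cd37 at 24.7 ± 5.71 CPM per kb. Tspan17 averaged 11.9 ± 1.48, Tspan3 6.90 ± 1.99, Tspan13 2.63 ± 0.863 and Tspan2 0.447 ± 0.179 CPM per kb, and Tspan2 stood at rank 11889 of the tested genes. Neighbours in this wild type order had separate ranges except Tspan17 and Tspan3. In Suz12 cKO Cd9 remained first at 2660 ± 34.4 CPM per kb (SD, n = 3). Cd81, at 189 ± 15.2, stood beside Cd63, at 177 ± 48.2, with overlapping ranges. Cd37, at 48.7 ± 6.89, stood above Tspan32, at 19.5 ± 3.39, and the ranges of Tspan32, Tspan17 (17.9 ± 1.45) and Tspan3 (16.1 ± 3.08) overlapped from neighbour to neighbour.

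**Figure D2:**
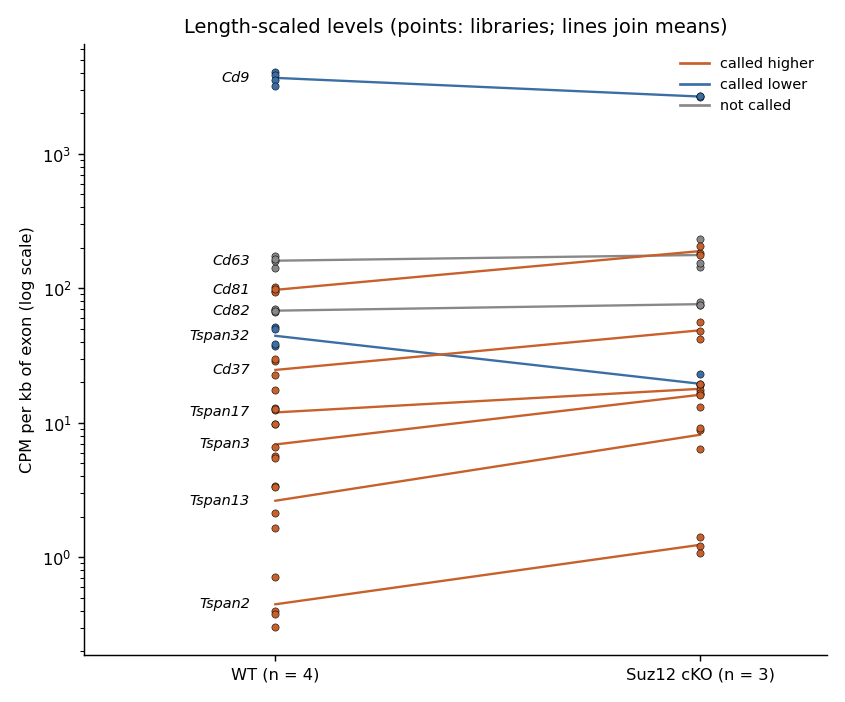
Length-scaled level (vertical axis, CPM per kb of exon, log scale) of the 10 tetraspanins in wild type (left) and Suz12 cKO (right); points are libraries, lines join the group means, and colours give the edgeR call. The Cd81 line reaches that of Cd63, and the Tspan32 line crosses that of Cd37.

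Cd9 (chr6:125460266-125494760, with all positions in GRCm38.p6) encodes a tetraspanin of macrophages, platelets and epithelia that binds integrins and EWI-family proteins. It measured 3174, 3128 and 3210 CPM in Suz12 cKO replicates 1 to 3. In wild type replicates 1 to 4 it measured 4847, 4578, 4218 and 3817 CPM. The Suz12 cKO libraries lay close together below the lowest wild type library, and the wild type libraries varied more. The means were 3170 ± 41.0 and 4365 ± 447 CPM, a log2 fold change of -0.46 (SE 0.08), which is 1.38-fold lower in Suz12 cKO. Within the 4 libraries low in haemoglobin the value was -0.43 (SE 0.14) and was not called, and within the 3 high ones it was -0.54 (SE 0.09). A noncoding gene on the other strand, Gm26728, shares 218 exon bases with Cd9 and was not analysed here.

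Cd81 (chr7:143052750-143067930) encodes the close relative of CD9. Its 3 Suz12 cKO levels were 279, 313 and 268 CPM. Wild type levels were 145, 154, 141 and 150 CPM. The groups were far apart for their spread, with means of 287 ± 23.0 and 148 ± 5.90 CPM, which is 1.94-fold higher in Suz12 cKO. The log2 fold change was 0.96 (SE 0.09), the smallest SE relative to its size among the 10 genes, and it lay between 0.87 and 0.99 over the 14 alternative analyses. As Cd9 was lower and Cd81 higher, the ratio of their length-scaled levels was 14.5, 12.7 and 15.2 in Suz12 cKO and 42.7, 37.8, 38.1 and 32.3 in wild type. Cd9 made up 74.7 ± 1.01% of the summed length-scaled level of the 31 tetraspanins in Suz12 cKO and 81.5 ± 1.18% in wild type, with separate ranges. Cd81 made up 5.31 ± 0.500% and 2.18 ± 0.222%. The summed level was itself lower in Suz12 cKO, at 3513, 3525 and 3648 against 4920, 4677, 4361 and 4004 CPM per kb.

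Tspan32 (chr7:143004907-143019486), a tetraspanin gene of blood cells whose product restrains T cell activation and acts in platelets, had the largest decrease among the 10 genes. Suz12 cKO levels were 29.9, 34.8 and 42.2 CPM, and wild type levels were 94.1, 68.3, 90.4 and 70.8 CPM. The highest Suz12 cKO library was below the lowest wild type library. The means were 35.6 ± 6.20 and 80.9 ± 13.3 CPM, a log2 fold change of -1.18 (SE 0.16), or 2.27-fold lower. The value was -1.03 within the libraries low in haemoglobin and -1.08 within the high ones. An antisense gene, Tspan32os, shares 271 exon bases with Tspan32 and was not analysed here.

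Tspan32 and Cd81 are near neighbours on chromosome 7, 33.3 kb apart, and moved in opposite directions. Their starts lie between those of Ascl2 and Kcnq1, within the region of the Kcnq1 cluster of imprinted genes. Several genes of that cluster are expressed mainly from the maternal copy. A list of 20 genes at this locus includes Cd81 and Tspan32 themselves, which were chosen by this same contrast. Of the 20 genes 15 were tested, of which Cd81 and Osbpl5 were called higher and Tspan32 lower, and 12 were not called. Apart from the chosen pair, Osbpl5 alone was called, so the count with the pair in it is a description. Over all genes tested 6.28% were called higher and 4.02% lower. Osbpl5, a lipid transfer protein gene 636 kb from the start of Cd81, averaged 9.41 ± 2.45 CPM in Suz12 cKO and 1.54 ± 1.02 CPM in wild type (log2 fold change 2.61, SE 0.50, edgeR adjusted p = 0.0131). Tssc4, whose start is 15.7 kb from that of Cd81, had a log2 fold change of 0.13 (SE 0.16, edgeR adjusted p = 0.680), and the long noncoding RNA gene Kcnq1ot1 one of 0.05 (SE 0.25, edgeR adjusted p = 0.946). The cell cycle inhibitor gene Cdkn1c had 2.25 (SE 0.70, edgeR adjusted p = 0.0795). R74862, a noncoding gene that shares 104 exon bases with Cd81 on the other strand, averaged 0.981 CPM in Suz12 cKO and 0.636 CPM in wild type. The sources used here do not say whether reads were assigned by strand, so reads from such antisense pairs cannot be told apart. The level of R74862 was below 1% of that of Cd81.

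**Figure D3:**
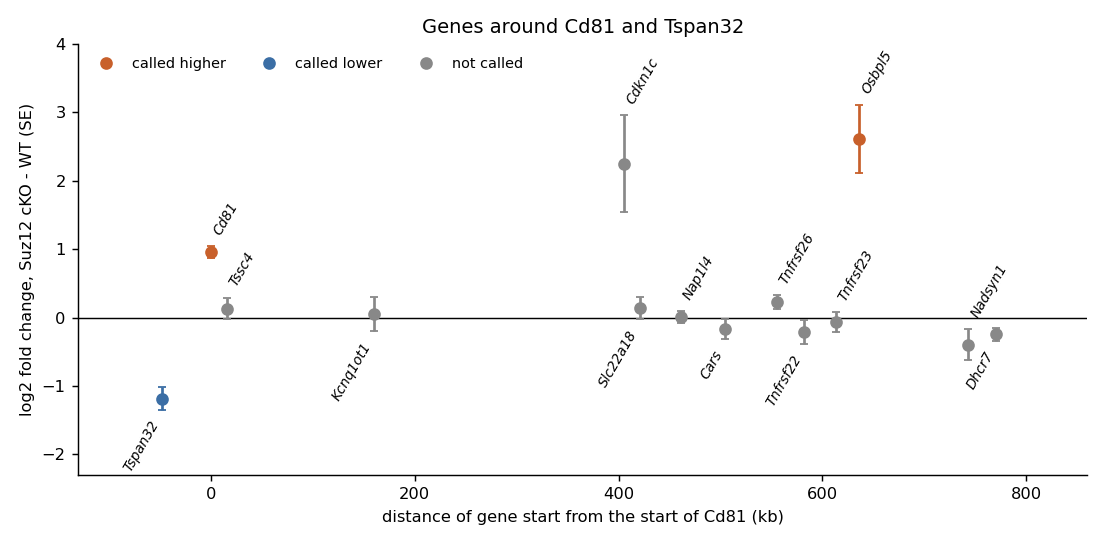
Log2 fold change (vertical axis, Suz12 cKO minus wild type, bars SE) of tested genes around Cd81 and Tspan32 against the distance of each gene's start from that of Cd81 in kb (horizontal axis); colours give the edgeR call. Kcnq1, whose SE was 1.70, is left out; Tspan32 lies at -1.18 and Cd81 at 0.96, while Tssc4 beside them lies at 0.13.

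The promoters of these neighbours differ in base composition. They are shown here, with those of Tspan13, the gene of the largest increase among the 10, and of Cd37, the called increase with the fewest CpG dinucleotides. Each sequence is the 250 bases before the start of the first promoter entry listed for the gene, from RefSeq, on the gene's own strand in GRCm38.p6, with CpG dinucleotides in capitals: chr7:143052500-143052749 (plus strand), chr7:143004796-143005045 (plus strand), chr12:36042479-36042728 (minus strand) and chr7:45238840-45239089 (minus strand).
Cd81: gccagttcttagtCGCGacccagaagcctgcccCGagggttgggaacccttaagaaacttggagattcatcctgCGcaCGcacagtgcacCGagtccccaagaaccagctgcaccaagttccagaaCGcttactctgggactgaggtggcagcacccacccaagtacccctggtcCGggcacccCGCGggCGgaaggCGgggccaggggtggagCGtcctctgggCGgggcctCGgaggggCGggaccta
Tspan32: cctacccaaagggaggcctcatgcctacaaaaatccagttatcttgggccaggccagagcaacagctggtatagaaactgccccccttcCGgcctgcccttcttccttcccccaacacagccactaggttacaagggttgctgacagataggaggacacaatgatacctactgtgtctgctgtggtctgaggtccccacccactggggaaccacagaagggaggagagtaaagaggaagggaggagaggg
Tspan13: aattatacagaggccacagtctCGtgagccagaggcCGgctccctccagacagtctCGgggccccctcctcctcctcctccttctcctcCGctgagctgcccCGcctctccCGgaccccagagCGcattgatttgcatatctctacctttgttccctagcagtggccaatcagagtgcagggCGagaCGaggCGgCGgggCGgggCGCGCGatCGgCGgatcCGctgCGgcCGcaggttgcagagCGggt
Cd37: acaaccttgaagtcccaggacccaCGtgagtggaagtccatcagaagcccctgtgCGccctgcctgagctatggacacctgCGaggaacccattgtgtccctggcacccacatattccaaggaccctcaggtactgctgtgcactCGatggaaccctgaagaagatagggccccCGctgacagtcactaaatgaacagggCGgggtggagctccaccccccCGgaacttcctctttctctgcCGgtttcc
The entry's start need not be the outermost start of the gene: the Tspan32 window reaches into the gene span given for it, and the Cd37 window lies inside its span. The Cd81 window held 16 CpG dinucleotides, that of Tspan13 21, that of Cd37 8 and that of Tspan32 1. Over the first listed promoter of 27025 genes the median was 6, and 38.2% held 10 or more. This background was not limited to the 14436 genes tested, whereas all 10 tetraspanins were tested, so the sets are unlike. Among the 10 tetraspanins, which all had an entry, 7 held 10 or more. Beside Cd81 and Tspan13 these were Tspan17 with 22, Cd9 with 16, Tspan3 with 14, Cd82 with 14 and Tspan2 with 12. Cd63 held 6. Of the 19 other tetraspanins with an entry, 9 held 10 or more. CpG-rich windows were thus found among genes that were called higher (Cd81), called lower (Cd9) and not called (Cd82). For Cd82 the count depends on the start used, as its other listed entries held 3, 11 and 12. Its first entry was also not matched to the start of a GENCODE transcript. The letters GGGCGG, searched on both strands, were in 6 of the 10 windows and in 32.9% of all windows; 3 stood in Cd81 and 0 in Tspan32, and each copy contains a CpG. The letters GAGGAA, also searched on both strands, were in 3 of the 10 windows (Cd37 and Cd63 with 2 each, Tspan32 with 1) and in 23.1% of all windows. A match of such letters is a description and not a binding site.

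Cd37 (chr7:45233632-45239340) encodes a leukocyte tetraspanin that associates with the beta-glucan receptor dectin-1. It reached 51.7, 68.5 and 58.8 CPM in Suz12 cKO libraries. In wild type it reached 35.2, 36.5, 21.5 and 27.9 CPM. No libraries overlapped, and the means of 59.7 ± 8.45 and 30.3 ± 7.0 CPM differ by a log2 fold change of 0.98 (SE 0.19). Without Suz12 cKO replicate 2 the value was 0.87 and the gene was not called, and within the libraries high in haemoglobin it was 0.72 and not called.

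Tspan13, Tspan3 and Tspan2 had lower levels and larger relative increases. Tspan13 (chr12:36014555-36042478) had 17.1, 17.6 and 12.3 CPM in the Suz12 cKO libraries, with 3.20, 6.51, 6.40 and 4.12 CPM in wild type. The lowest Suz12 cKO library was above the highest wild type library, for a log2 fold change of 1.63 (SE 0.29), or 3.09-fold. Within the libraries high in haemoglobin the value was 1.41, and within the low ones it was 1.41 and not called.

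Tspan3 (chr9:56135884-56161070) encodes a broadly expressed tetraspanin. Levels of 22.8, 27.6 and 33.4 CPM in Suz12 cKO compared with 9.83, 16.9, 11.5 and 9.48 CPM in wild type. Its log2 fold change was 1.23 (SE 0.23). The highest wild type library was replicate 2 and the lowest Suz12 cKO library was replicate 1, both high in haemoglobin. The value was 0.57 (SE 0.23) and not called within the 3 libraries high in haemoglobin, and 1.69 (SE 0.20) within the 4 low ones; the difference between these values was not tested.

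Tspan2 (chr3:102734770-102772310), best known from myelin-forming oligodendrocytes, was the lowest of the 10 genes. The Suz12 cKO libraries held 5.30, 6.18 and 4.72 CPM and the wild type libraries 1.32, 1.74, 1.65 and 3.09 CPM, with raw counts between 97 and 150 in the wild type libraries. Wild type replicate 4 was the nearest to the Suz12 cKO libraries. The log2 fold change was 1.47 (SE 0.38), and the call was lost without any 1 Suz12 cKO library and without wild type replicate 1 or 3, with values between 1.32 and 1.77 over all libraries left out in turn. With all libraries, Tspan2 was not called without the filter on low counts (1.47), with the replicate number as a block (1.78) or with a term for haemoglobin level (1.46). It was also not called within the libraries low in haemoglobin, at 1.21 (SE 0.64), or within the high ones, at 1.72 (SE 0.44).

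Tspan17 (chr13:54789102-54796775) encodes an ADAM10 escort of the TspanC8 group. Its levels were 27.3, 25.8 and 30.3 CPM in Suz12 cKO, against 20.2, 15.2, 19.3 and 19.7 CPM in wild type. The groups were separate but close, with a log2 fold change of 0.58 (SE 0.14). The call was lost without any 1 Suz12 cKO library and without wild type replicate 1, 3 or 4, with values between 0.49 and 0.63 over all libraries left out in turn. With all libraries and the replicate number as a block it was lost too, at a value of 0.62. Tspan17 was not called within the libraries low in haemoglobin, at 0.61 (SE 0.17), or within the high ones, at 0.81 (SE 0.22). Other TspanC8 genes were not called. Tspan14, the most abundant of them, averaged 176 ± 15.2 CPM in Suz12 cKO and 219 ± 15.3 CPM in wild type (log2 fold change -0.32). Tspan5 averaged 53.2 ± 7.15 and 50.6 ± 2.34 CPM, and Tspan33 5.05 ± 2.81 and 2.56 ± 2.38 CPM. Tspan10 and Tspan15 were too low to test, with at most 21 counts in a library. Their client Adam10 averaged 246 ± 17.9 and 214 ± 22.7 CPM (log2 fold change 0.20, edgeR adjusted p = 0.298).

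Cd63 and Cd82 were not called. Cd63 (chr10:128896231-128912822) measured 150, 159 and 241 CPM in Suz12 cKO, against 181, 147, 164 and 172 CPM in wild type. Suz12 cKO replicate 3 was above all others and the remaining Suz12 cKO libraries lay within the wild type range. The log2 fold change was 0.14 (SE 0.17) and became -0.12 without that library. Within the libraries low in haemoglobin, where it is the lone Suz12 cKO library, the value was 0.47 (SE 0.12), and within the high ones it was 0.07 (SE 0.14), neither called. Cd82 (chr2:93419102-93462950) encodes a tetraspanin first described as a suppressor of metastasis. Its levels of 139, 145 and 140 CPM in Suz12 cKO were each above the 127, 130, 123 and 125 CPM of wild type. Its groups were separate, but the log2 fold change was only 0.16 (SE 0.08).

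**Figure D4:**
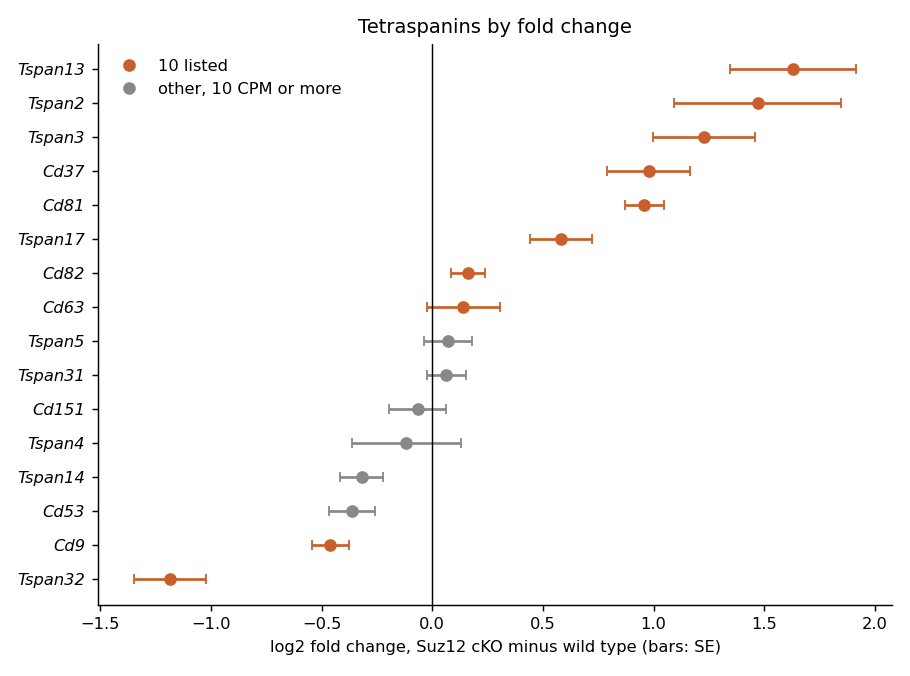
Log2 fold change (horizontal axis, Suz12 cKO minus wild type, bars SE) of the 10 listed tetraspanins (orange) and of the other tetraspanins that reached 10 CPM in a genotype (grey), ordered by value. The grey points lie between -0.36 and 0.07, inside the span of -1.18 to 1.63 of the listed genes.

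Of the 21 other tetraspanins 14 were tested and 0 were called by edgeR, with 2 at an unadjusted p under 0.05 and 2 called lower by DESeq2 (Cd53 and Tspan14 in each case). Since the choice of the 10 listed genes also set this remainder, the 0 is a description. Cd53, a tetraspanin gene of leukocytes, averaged 461 ± 23.7 CPM in Suz12 cKO and 594 ± 67.0 CPM in wild type (log2 fold change -0.36, SE 0.10). Cd151, whose product binds laminin-binding integrins, averaged 56.9 ± 8.47 and 59.6 ± 6.27 CPM. Tspan31 averaged 79.8 ± 2.74 and 76.4 ± 5.30 CPM, and Tspan4, known from the retraction fibres of migrating cells, 17.3 ± 6.53 and 18.8 ± 2.82 CPM. The 7 genes not tested reached at most 0.459 CPM in any library.

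Of 30 genes whose products are known to associate with tetraspanins or depend on them, 29 were tested, 4 rose and 2 fell, beside 6.28% and 4.02% of all genes tested. At an unadjusted p under 0.05 they numbered 6 and 4, and by DESeq2 5 and 4. Their median log2 fold change was -0.01. Itga6, a laminin-binding integrin chain, averaged 77.2 ± 4.72 CPM in Suz12 cKO and 27.9 ± 4.12 CPM in wild type (log2 fold change 1.47, SE 0.13, edgeR adjusted p = 5.4e-04). Cldn1, which encodes a tight junction claudin and partner of CD81 in hepatitis C virus entry, averaged 65.5 ± 4.10 and 22.5 ± 6.69 CPM (1.54, SE 0.21, edgeR adjusted p = 0.00286). Notch1, whose product is cut by ADAM10, averaged 134 ± 7.91 and 85.5 ± 3.86 CPM (0.65, SE 0.08, edgeR adjusted p = 0.00266). The scavenger receptor gene Cd36 averaged 876 ± 103 and 357 ± 145 CPM (1.29, edgeR adjusted p = 0.0222), and was not called without any 1 Suz12 cKO library or without wild type replicate 3. The adhesion gene Epcam, whose product sits with CD9 in epithelial membranes, averaged 43.8 ± 14.4 and 163 ± 18.1 CPM (-1.89, SE 0.21, edgeR adjusted p = 0.00135). The fibronectin receptor chain Itga5 averaged 130 ± 13.9 and 177 ± 20.2 CPM (-0.45, edgeR adjusted p = 0.0472), and was not called without Suz12 cKO replicate 1 or 2 or without wild type replicate 1, 3 or 4. The EWI-family genes Igsf8 and Ptgfrn, direct partners of CD9 and CD81, had log2 fold changes of -0.14 and 0.08 (edgeR adjusted p = 0.447 and 0.671).

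Of 28 genes of exosome and endosome machinery 26 were tested, and 0 rose and 1 fell by edgeR. Over all genes tested 6.28% rose and 4.02% fell. In this list 1 was higher and 4 lower at an unadjusted p under 0.05, and 0 and 2 by DESeq2. The gene that fell was Flot2, a flotillin of membrane rafts, at 127 ± 11.3 and 174 ± 6.41 CPM (log2 fold change -0.45, SE 0.09, edgeR adjusted p = 0.0163). Sdcbp, which encodes the CD63-binding adaptor syntenin, had -0.01 (edgeR adjusted p = 0.982). Of 18 genes of macrophage fusion 17 were tested, and 1 rose and 0 fell by edgeR, beside the same 6.28% and 4.02%. At an unadjusted p under 0.05, 5 were higher and 4 lower, and by DESeq2 2 and 3. The gene that rose was Cdh1, the E-cadherin gene, at 100 ± 12.1 and 51.0 ± 9.25 CPM (0.97, SE 0.15, edgeR adjusted p = 0.00464). Dcstamp, which encodes a fusion receptor of macrophages and osteoclasts, measured 25.0, 18.1 and 12.2 CPM in Suz12 cKO, against 1.23, 19.4, 1.52 and 3.94 CPM in wild type (edgeR adjusted p = 0.336). Its levels were highest in the 3 libraries high in haemoglobin.

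Some tetraspanins are strong in other blood cells. B cells are rich in Cd37 and Cd81. The B cell genes Ms4a1, Cd79a and Cd79b were each at 3.35 CPM or less in every library, and Cd22 alone, at 190 to 210 CPM in all libraries, made up most of the B cell list's sum of 195 to 216 CPM in Suz12 cKO and 196 to 210 CPM in wild type. Platelet genes, of a cell rich in Cd9, were all 10 higher on average in Suz12 cKO, with sums of 11.6 to 21.1 and 1.90 to 10.2 CPM. T and NK cell genes summed to 1.75 to 9.79 and 0.311 to 3.77 CPM. Genes of monocytes and interstitial macrophages, 12 of 12 higher on average in Suz12 cKO, summed to 769 to 1266 CPM in Suz12 cKO and to 276 to 1399 CPM in wild type, with the highest value in wild type replicate 2. Neutrophil genes summed to 118 to 176 and 57.4 to 67.6 CPM. Of the 6 tested, 4 were called higher, beside 6.28% of all genes tested. These were S100a8 at 57.9 ± 16.3 and 14.9 ± 5.18 CPM and Csf3r at 62.3 ± 11.3 and 41.1 ± 6.27 CPM. The others were Cxcr2 at 12.1 ± 3.89 and 3.54 ± 1.3 CPM, and Retnlg at 1.07 ± 0.855 and 0.0134 ± 0.0162 CPM. The remaining tested genes of this list, S100a9 and Ltf, were not called. S100a9 measured 3.36, 8.56 and 0 CPM in Suz12 cKO replicates 1 to 3, against 0, 4.32, 0 and 0 CPM in wild type (edgeR adjusted p = 0.677). Ltf was lower on average in Suz12 cKO, at 0.291 ± 0.411 and 1.67 ± 1.81 CPM (edgeR adjusted p = 0.357). Ly6g and Camp had no count in any library. Fibroblast genes summed to 32.4 to 42.2 and 0.165 to 22.7 CPM, and all but Pdgfra were at 1.32 CPM or less in the Suz12 cKO libraries. Dendritic cell, lung epithelium and endothelium genes summed to 41.4 to 115, 134 to 167 and 78.6 to 113 CPM in Suz12 cKO, and to 22.2 to 76.7, 66.0 to 159 and 98.5 to 107 CPM in wild type. The lung epithelium sums include Cdh1, also listed above under macrophage fusion, at 87.4 to 112 CPM in Suz12 cKO and 44.6 to 64.4 CPM in wild type. Sums of erythroid genes were 1.92 to 150 and 2.35 to 41.5 CPM, and those of alveolar macrophage genes 30871 to 35591 and 25436 to 29914 CPM. Chil3, at 19467 ± 1470 and 17223 ± 1420 CPM, made up most of the latter. Of the 14 alveolar macrophage genes, all tested, 6 were called higher and 0 lower, beside 6.28% and 4.02% of all genes tested. The 6 were Itgax (3308 ± 252 and 2083 ± 43.1 CPM), Mrc1, Marco, Fabp4, Fabp1 and Krt79. Siglecf was lower, at 218 ± 18.4 and 286 ± 37.1 CPM, and was not called. The part of cells other than alveolar macrophages in the tetraspanin differences was not tested. In wild type replicate 2, which had the highest sum of the monocyte list, Cd81 was at 154 CPM and Cd37 at 36.5 CPM, both below each Suz12 cKO library.

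**Figure D5:**
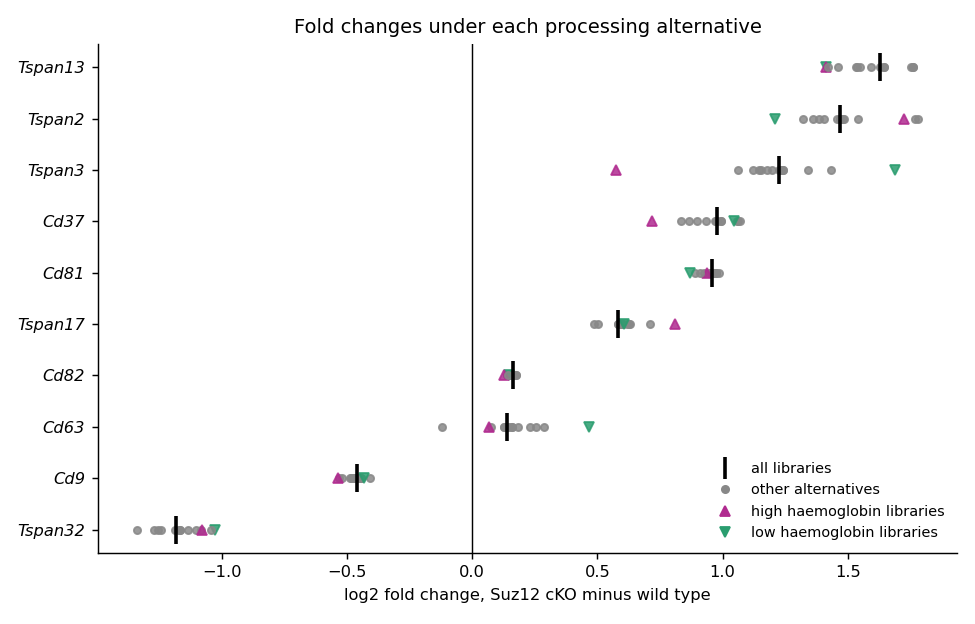
Log2 fold change (horizontal axis, Suz12 cKO minus wild type) of the 10 tetraspanins in all libraries (black bars) and under the 14 alternative analyses (symbols), with the analyses within libraries high (upward triangles) and low (downward triangles) in haemoglobin marked. Each of the 8 called genes stays on its side of 0, and Tspan3 spreads widest, from 0.57 to 1.69.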

How the data were processed

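Per the labels' protocols, TruSeq libraries were made from polyadenylated RNA, and the series' design text gives single-end sequencing with a read length of 85 bp. The deposited values are whole-number counts for each gene; the submitters' processing notes name featureCounts and mm10. The sources used here do not give the aligner, annotation or strand setting. The exon length of each gene is as deposited by the authors. Symbols and positions came from RefSeq (GRCm38.p6) by Entrez number, with 25275 of 27179 genes matched and 0.829% of counts in unmatched genes. Gene overlaps came from GENCODE on the same build. Pairs of replicates of a genotype gave a chi-square per degree of freedom of 47.0 to 246. This takes each deposited count as an independent read, which is uncertain since the counts exceed the stated reads. It was used only to check that no library was a copy of another.

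Genes were filtered with filterByExpr (minimum count 10, minimum total 15), scaled by TMM and tested in edgeR 4.0.16 under R 4.3.3 by quasi-likelihood, with a single term for genotype and Benjamini-Hochberg adjustment over 14436 genes; the fit was tested on simulated data. The SE is the size of the log2 fold change divided by the square root of F. Alternatives were DESeq2 1.42.0, its size factors, no filter, each library left out, the replicate number as a block, and fits by haemoglobin level, split at 20 CPM. The 10 genes and all lists were chosen with earlier results of these data known. The text names all 10 genes and Suz12, other tetraspanins called or at 10 CPM or more, and up to 4 called genes per direction of each list by smallest p, with background genes and markers beside them. Counts do not separate PCR copies.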

Additional observations from a re-analysis of the deposited data

Results flagged for a closer look

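Dixon's test at the 95% level, which flags about 1 in 20 groups by chance, was run on the wild type levels of 46 genes. These did not include every gene named with values, as Chil3 was left out. Of the 46 genes, 5 had a wild type library far from the other 3. In 4 of them the far library was wild type replicate 2, one of the 3 libraries high in haemoglobin. The tetraspanin Tspan33 was at 6.12 CPM there, against 1.29 to 1.46 CPM in the other wild type libraries. Dcstamp was at 19.4 CPM, against 1.23 to 3.94 CPM. Cd79a was at 1.95 CPM, against 0.0249 to 0.186 CPM. Epcam was at 189.6 CPM, against 150 to 156 CPM. Notch1 was lowest in wild type replicate 3, at 79.7 CPM, against 87.2 to 87.7 CPM. Epcam and Notch1 stayed apart from the Suz12 cKO libraries, which lay between 34.8 and 60.4 CPM for Epcam and between 126 and 142 CPM for Notch1. None of the 10 listed tetraspanins was flagged.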

How the results depend on the processing

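The 8 called tetraspanins kept their direction under all 14 alternatives, and Cd81 and Tspan32 stayed called in each. The members called higher (6 with all libraries) numbered 3 within the libraries low in haemoglobin, 2 within the high ones and 3 to 6 with each library left out; those called lower (2) numbered 1 within the low ones and 2 with each library left out. A lone library of 1 genotype in those fits is assumed to vary like the others. Other tetraspanins called lower (0) numbered 2 by DESeq2, 1 within the libraries high in haemoglobin, 1 with a term for haemoglobin and 0 to 1 with each library left out (1 without wild type replicate 4); those called higher (0) numbered 0 to 2, with Tspan9 and Tspan33 called without wild type replicate 2. Partners called higher (4) numbered 3 to 7 with each library left out (7 without wild type replicate 2), and those called lower (2) numbered 1 with DESeq2 size factors, 4 by DESeq2, 1 within the low and 4 with the haemoglobin term, and 1 to 2 with each library left out. All genes called higher (906) numbered 1393 by DESeq2 and 447 to 1515 with each library left out (on leaving out Suz12 cKO replicates 1, 2 and 3 in turn, 479, 447 and 562; on leaving out wild type replicates 2 and 3, 1515 and 546). All genes called lower (580) numbered 367 within the low and 328 within the high libraries and 268 to 885 with each left out (for Suz12 cKO replicates 1 and 2, 309 and 268; for wild type replicates 1, 2 and 3, 299, 885 and 317). The causes were not tested, beyond the smaller number of libraries.

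The replicate numbers are shared by both genotypes. Deviations of same-numbered libraries correlated across genes at -0.0411, 0.242 and 0.158, and those of differently numbered libraries at -0.256 to 0.117. The same-numbered value was the highest for Suz12 cKO replicates 2 and 3 but not for replicate 1. These values do not settle whether the numbers pair the libraries, and the main fit used genotype alone. With the replicate block 585 genes were called higher and 278 lower, of them 4 and 2 of the 10 tetraspanins, 0 and 0 of the others and 5 and 2 of the partners. At these depths Tspan2, near 100 counts in wild type, is the least precise of the 10 genes.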
